A study of Mus musculus with 12 samples.

Results

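The genes described here are 10 interferon gamma response genes: 9 that encode interferon-inducible GTPases and Irf1, the transcription factor that drives many of them. They were chosen by symbol from the 46986 features of an RNA-seq table of hematopoietic stem cells (HSCs). The GTPases are 5 guanylate-binding proteins (Gbp2, Gbp3, Gbp6, Gbp7 and Gbp9) and 4 immunity-related GTPases (Irgm1, Irgm2, Igtp and Iigp1). HSCs were sorted from bone marrow of 12-week-old C57BL/6 mice, and each library was made from RNA of 2000 sorted cells. The 12 libraries form 4 groups of 3. Control mice received neither agent and were analysed at steady state. Antibiotics mice had ampicillin, neomycin, metronidazole and vancomycin in their water during 4 to 6 weeks, a combination that depletes bacteria of the gut. Control 5-FU mice had no antibiotics and were analysed on day 12 after 200 mg/kg of 5-fluorouracil (5-FU), an antimetabolite given into a vein that kills dividing marrow cells. Antibiotics 5-FU mice received both. No group carries a transgene or deletion by its labels. The labels do not say whether libraries of a group came from separate mice, so every p-value measures only the spread between these libraries.

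Interferon gamma, a cytokine of T and NK cells, binds the receptor chains IFNGR1 and IFNGR2. The kinases JAK1 and JAK2 then pass on the signal, which switches on first Irf1 and then, with the help of IRF1, the GTPase genes. Promoters of such genes often hold a gamma-activated sequence (GAS) or an IRF element. GBP and IRG proteins assemble on the vacuoles of intracellular microbes and help to disrupt them. IRGM proteins (Irgm1, Irgm2 and Igtp, also called Irgm3) sit on the membranes of the host cell and keep effector IRG proteins such as Iigp1 (Irga6) inactive there. In HSCs, interferon gamma is known to drive cells out of quiescence, and mice that lack Irgm1 have HSCs that cycle too much.

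The stretches around the start sites that hold these elements are shown because they are what the members share in sequence. They are from RefSeq on GRCm38.p6, read 5′ to 3′ on the strand of the gene, and capitals mark matches to the motifs TTCNNNGAA (GAS) and GAAANNGAA (the IRF element), searched on both strands. TTCNNNGAA is its own reverse complement, and an IRF element on the opposite strand reads as TTC, any pair of bases and TTTC. Windows of 250 bases before to 50 bases after the start site are described for 7 of the 10 members. No window was found for Gbp6 and Gbp9, and Iigp1 was left out of this part, so its motifs are not described.
Gbp2 (chr3:142620585-142620633, + strand): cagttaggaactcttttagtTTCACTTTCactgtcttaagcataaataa
Gbp3 (chr3:142559980-142560034, + strand): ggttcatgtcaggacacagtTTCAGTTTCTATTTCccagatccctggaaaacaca
Gbp7 (chr3:142530210-142530312, + strand): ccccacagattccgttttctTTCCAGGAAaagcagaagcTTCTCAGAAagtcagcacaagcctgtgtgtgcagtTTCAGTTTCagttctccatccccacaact
Irgm1 (chr11:48871416-48871470, - strand): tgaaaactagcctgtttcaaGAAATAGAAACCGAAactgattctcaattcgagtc
Irgm2 (chr11:58214882-58214941, + strand): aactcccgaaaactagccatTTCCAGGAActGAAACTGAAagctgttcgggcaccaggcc
Igtp (chr11:58199491-58199550, + strand): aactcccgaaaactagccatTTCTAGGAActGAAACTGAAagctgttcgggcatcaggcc
Irf1 (chr11:53769904-53769952, + strand): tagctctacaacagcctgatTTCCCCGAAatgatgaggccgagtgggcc

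All 7 of these genes held at least 1 of the motifs in a window, against 17.9% of the 27025 genes with a window. Irf1 held the GAS alone, 90 bases before its start site. Gbp2, Gbp3 and Irgm1 held the IRF element alone, and in Gbp3 and Irgm1 a pair of matches overlapped. Gbp7, Igtp and Irgm2 held both motifs, a combination found in 1.07% of all 32851 windows. A GAS was present in 8.3% and an IRF element in 8.56% of all windows. The stretches of Igtp and Irgm2 were identical at 58 of 60 bases, with the GAS starting 45 and 75 bases before the start sites. A match is a description of the letters, not evidence of binding.

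**Figure D1:**
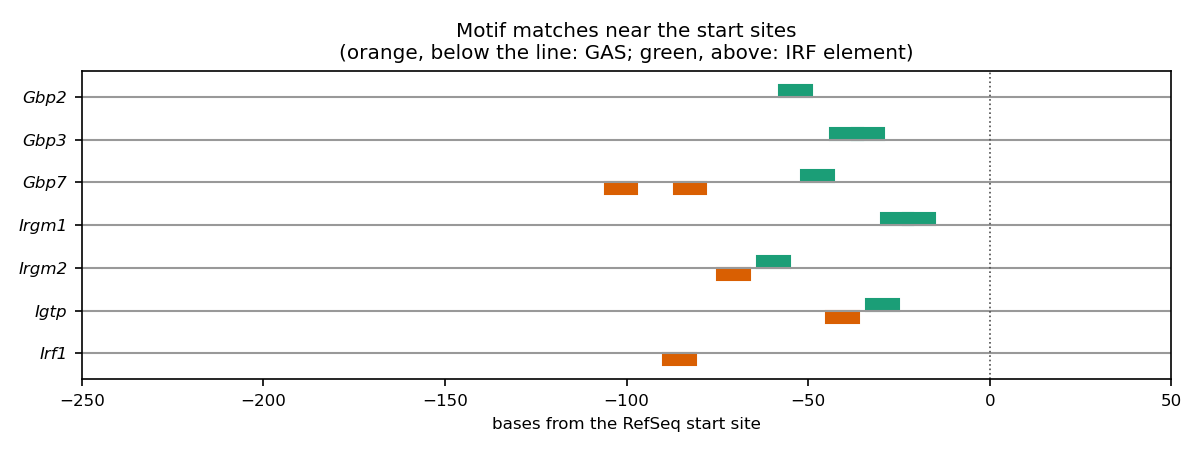
Positions of motif matches in the windows from 250 bases before to 50 bases after the RefSeq start site (dotted line) of the 7 members described. Orange blocks below a line are GAS matches and green blocks above it IRF elements, and all of them lie between 106 bases before the start site and the start site.

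Estimated depth was 27.7 to 54.5 M reads per library. At steady state, depth was 44.2 to 54.5 M in control and 29.0 to 37.6 M in antibiotics libraries, ranges that are apart. The summed level was lower after 5-FU, so fold changes across 5-FU depend on scaling, as described beside each result. Defining HSC markers were present, with Procr at 15.9 to 31.6 RPKM and Kit at 13.3 to 17.4 RPKM. Control 5-FU replicate 1 stood apart, with Cldn5, an endothelial marker, at 132.0 RPKM, and antibiotics 5-FU replicate 1 had 82.0 RPKM, against 0.326 to 6.82 RPKM in the other 10 libraries. Endothelial cells respond to interferon gamma themselves, and their part in the results was not tested beyond leaving out either library. Values from leaving out 1 of these libraries stand beside Irf1, Irgm1, Iigp1, Gbp3 and Gbp6.

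Levels are given in RPKM, reads per kilobase of gene and M reads, which allows comparison between genes. Averaged over the 12 libraries, Irf1 was highest at 21 RPKM, followed by Irgm1 at 16.5 and Igtp at 14.0. Gbp7 (7.54), Iigp1 (6.45), Gbp2 (5.37), Irgm2 (4.95) and Gbp3 (4.5) formed a middle range, and Gbp6 (0.759) and Gbp9 (0.507) were under 1 RPKM on average. The most abundant of these 9 GTPases were of the IRGM kind, Irgm1 and Igtp. The order of the 4 groups was not the same for all members: the antibiotics group had the lowest mean for 5 of 10 members and the antibiotics 5-FU group the highest for 5. Of the 30 pairs of groups next to each other in these orders, only 2 did not overlap.

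Irf1 (ENSMUSG00000018899, mm10 chromosome 11, 53770014 to 53778374, plus strand, 10 exons in its longest transcript) read 16.8, 22.5 and 21.9 RPKM in control replicates 1 to 3. It read 17.9, 26.6 and 25.7 in control 5-FU, 14.2, 15.6 and 20.2 in antibiotics, and 22.4, 28.9 and 19.6 RPKM in antibiotics 5-FU replicates. The groups overlapped in each comparison, although antibiotics 5-FU had only 1 library within the antibiotics range. With antibiotics the 5-FU change was 0.47 ± 0.19 (log2 change ± SE, adjusted p = 0.0783), and without antibiotics it was 0.18 ± 0.19 (adjusted p = 0.521). Leaving out control 5-FU replicate 1, which enters the change with antibiotics only through the shared spread, gave the same change with an adjusted p of 0.0458. Without antibiotics 5-FU replicate 1, which also had high Cldn5, the change was 0.50 (adjusted p = 0.121). Without antibiotics 5-FU replicate 2 it was 0.32 (adjusted p = 0.265). Gm17334, an antisense gene at 0.48 RPKM on average, overlaps Irf1, and reads of the pair cannot be told apart where strand was not used.

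Irgm1 (ENSMUSG00000046879, chromosome 11, 48861968 to 48871683, minus strand) was the steadiest member. It read 18.5, 19.6 and 18.4 RPKM in control, 15.6, 16.2 and 16 in control 5-FU, 16, 14.9 and 16.5 in antibiotics and 15.2, 17.0 and 14.0 RPKM in antibiotics 5-FU libraries. The 3 control libraries lay above all 9 others. The 5-FU change without antibiotics was -0.23 ± 0.077 (adjusted p = 0.0567), short of the threshold. It passed at 0.0463 without antibiotics 5-FU replicate 2, which enters this change only through the shared spread. Without control replicate 2 it was -0.20 (adjusted p = 0.136), and without control 5-FU replicate 1 it was -0.21 (adjusted p = 0.1). The change with antibiotics at steady state was -0.24 ± 0.077 (adjusted p = 0.171).

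Irgm2 (ENSMUSG00000069874, chromosome 11, 58199618 to 58222779) and Igtp (ENSMUSG00000078853, chromosome 11, 58199556 to 58207591) are neighbours on the plus strand whose annotated spans overlap. They shared 7.83% and 11.8% of their 50-base transcript words with other genes, mostly with each other, so part of their reads could be assigned to either. Irgm2 read 4.16, 6.82 and 5.47 RPKM in control, 5.37, 5.04 and 6.09 in control 5-FU, 3.7, 3.43 and 4.43 in antibiotics and 4.62, 5.77 and 4.51 RPKM in antibiotics 5-FU. Its antibiotics 5-FU libraries all lay above its antibiotics libraries, yet the change of 0.30 ± 0.14 did not pass (adjusted p = 0.139). Igtp read 13.9, 18.2 and 14.7 RPKM in control, 14.7, 11.7 and 14.9 in control 5-FU, 10.9, 10.5 and 14.7 in antibiotics and 13.6, 18.3 and 11.4 RPKM in antibiotics 5-FU. Its groups overlapped in every comparison.

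Iigp1 (ENSMUSG00000054072, chromosome 18, 60376029 to 60392627) encodes the effector IRG of the set. It read 4.69, 7.88 and 5.62 RPKM in control, 8.63, 3.97 and 5.47 in control 5-FU, 4.76, 4.64 and 6.35 in antibiotics and 7.91, 10.7 and 6.8 RPKM in antibiotics 5-FU libraries. The antibiotics 5-FU libraries lay above the antibiotics libraries without overlap, with a change of 0.59 ± 0.24 (adjusted p = 0.086). Without control 5-FU replicate 1, which enters this change only through the shared spread, the same change had an adjusted p of 0.0391. Without antibiotics 5-FU replicate 1, the library of this group with high Cldn5, it was 0.62 (adjusted p = 0.131). Without antibiotics 5-FU replicate 2 it was 0.43 (adjusted p = 0.269), and without antibiotics replicate 2 it was 0.52 (adjusted p = 0.217). The 8.63 RPKM of control 5-FU replicate 1 is more than in the other control 5-FU libraries, and that library is the one with high Cldn5.

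Gbp2 (ENSMUSG00000028270, chromosome 3, 142620602 to 142638008), which coats pathogen vacuoles, read 5.36, 5.72 and 6.31 RPKM in control and 4.42, 4.6 and 5.34 in control 5-FU. It read 4.23, 4.5 and 5.89 in antibiotics and 5.83, 7.02 and 5.2 RPKM in antibiotics 5-FU. Its control 5-FU libraries lay below its control libraries, at -0.23 ± 0.12 (adjusted p = 0.194), whereas with antibiotics the estimate had the opposite sign, at 0.26 ± 0.12 (adjusted p = 0.129). The difference between these changes, the interaction, was 0.49 ± 0.17, with an unadjusted p of 0.0159 and an adjusted p of 0.554, so it did not pass.

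Gbp3 (ENSMUSG00000028268, chromosome 3, 142560026 to 142573209) was the only member called higher after 5-FU with all 12 libraries on the RPKM scale, and only with antibiotics. The estimate of Iigp1 there, 0.59 ± 0.24, was larger but was not called (adjusted p = 0.086). Gbp3 read 3.13, 3.11 and 4.16 RPKM in antibiotics and 4.96, 6.2 and 4.66 RPKM in antibiotics 5-FU libraries. This was a change of 0.49 ± 0.12 (adjusted p = 0.0118), and the groups did not overlap. Leaving out antibiotics replicate 2 or antibiotics 5-FU replicate 2 ended the call, at adjusted p = 0.0511 and 0.0523. Without antibiotics 5-FU replicate 1, the library of this group with high Cldn5, the change was 0.52 (adjusted p = 0.0249). It read 3.7, 3.94 and 4.79 in control and 5.44, 4.64 and 5.27 RPKM in control 5-FU, where the change of 0.25 ± 0.12 did not pass (adjusted p = 0.158). The interaction of 0.24 ± 0.17 (adjusted p = 0.732) did not show that the changes differ.

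Gbp7 (ENSMUSG00000040253, chromosome 3, 142530342 to 142550149), linked to the assembly of NADPH oxidase on phagosomes, was the most abundant GBP. It read 6.6, 7.38 and 6.38 RPKM in control, 7.29, 6.6 and 7.66 in control 5-FU, 8.0, 6.43 and 7.77 in antibiotics and 9.17, 9.96 and 7.28 RPKM in antibiotics 5-FU libraries. All groups overlapped, and no change passed. The largest was 0.25 ± 0.11 for antibiotics after 5-FU (adjusted p = 0.328).

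Gbp6 (ENSMUSG00000104713, chromosome 5, 105214907 to 105293698) was lower without overlap after 5-FU without antibiotics, but its call rests on the filter on low values. It read 0.904, 3.07 and 1.08 RPKM in control and 0.274, 0.165 and 0.261 RPKM in control 5-FU libraries, which did not overlap, a change of -1.04 ± 0.24 (adjusted p = 0.0135). It read 0.539, 0.625 and 1.16 in antibiotics and 0.265, 0.572 and 0.191 RPKM in antibiotics 5-FU, a change of -0.40 ± 0.24 (adjusted p = 0.24), and the interaction of 0.64 ± 0.34 had an adjusted p of 0.653. Gbp6 reached 1 RPKM in 3 libraries only, control replicates 2 and 3 and antibiotics replicate 3, so it entered the test through groups in which it was high. With no filter on low values its change had an adjusted p of 0.0613. Leaving out control replicate 2, control replicate 3 or antibiotics replicate 3 as well gave -0.69, -1.18 and -1.04 (adjusted p = 0.0579, 0.0922 and 0.0697). Gbp6 thus stayed uncalled in these fits, as it already was with no filter and all 12 libraries. Of its 50-base transcript words, 70.7% occur in other genes, chiefly Gm43302 and Gbp10, whose reads could be assigned to it. Its span here begins before its start at 105270702 in GENCODE M21, a gene annotation, and holds Gbp10 on the same strand. Leaving out control 5-FU replicate 1, the library with the most Cldn5, gave -1.06 (adjusted p = 0.0223).

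Gbp9 (ENSMUSG00000029298, chromosome 5, 105077630 to 105139539) lies in the same GBP cluster, overlaps Gbp4 and Gbp8 on its strand, and stayed under 1 RPKM in every library. It read 0.688, 0.686 and 0.492 RPKM in control, 0.652, 0.211 and 0.25 in control 5-FU, 0.363, 0.554 and 0.748 in antibiotics and 0.497, 0.617 and 0.328 RPKM in antibiotics 5-FU libraries. It was tested only with no filter, and its largest change was -0.25 ± 0.14, for 5-FU without antibiotics (adjusted p = 0.384).

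**Figure D2:**
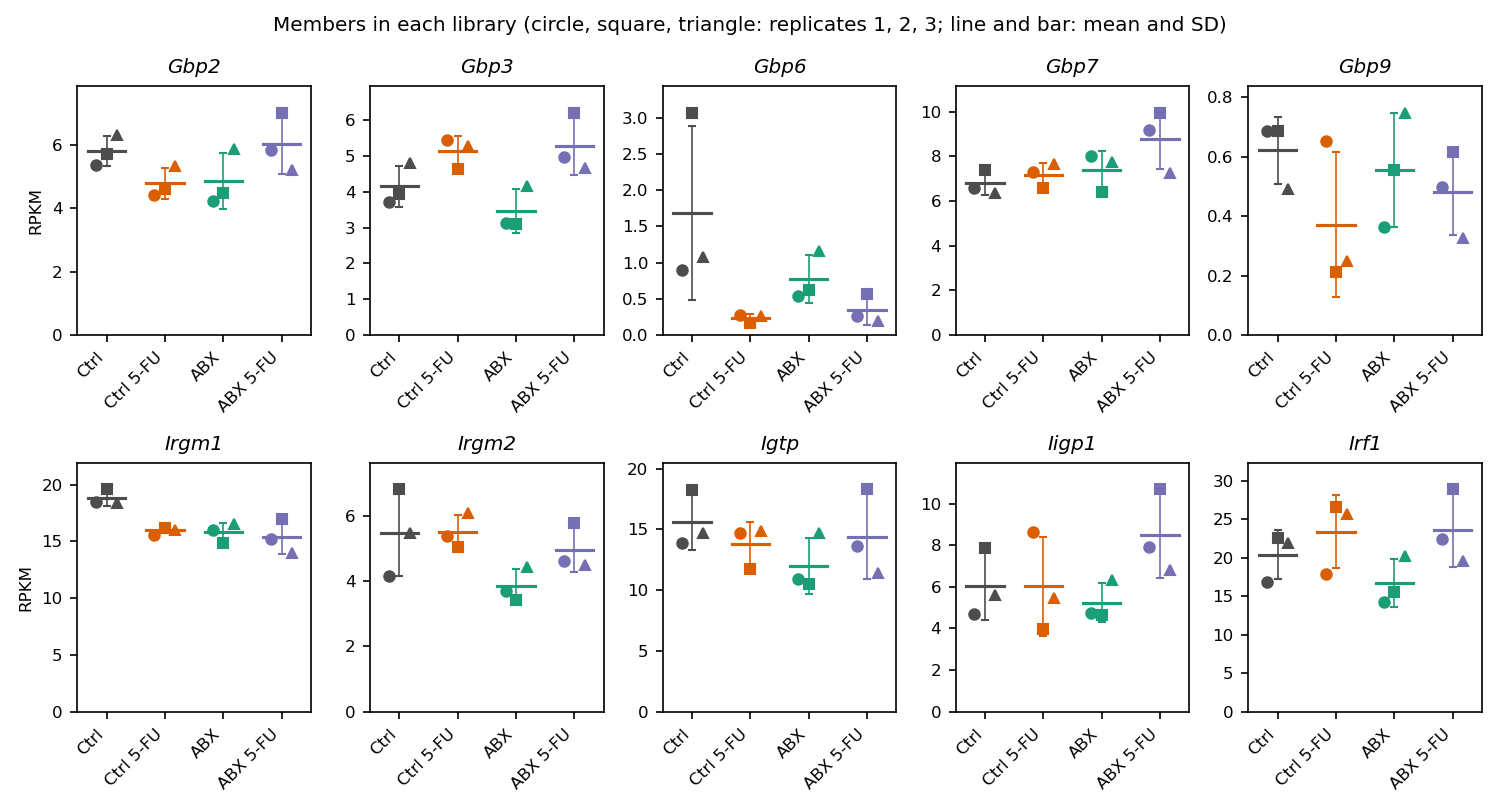
Level of each member (vertical axes in RPKM, starting at 0) in the 12 libraries, by group (horizontal axes), with the mean and SD of 3 replicates. Gbp6 in control ranges from 0.904 to 3.07 RPKM, and the control libraries of Irgm1 lie above all others.

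Regenerating HSCs of mice without antibiotics were first compared with HSCs at steady state. Of the 9 members tested, 1 was called lower (Gbp6), beside 11.8% of all 8553 genes tested, and 0 were called higher, beside 9.74%. Gbp6 was tested only because it reached 1 RPKM in groups where it is high, and with no filter 0 members were called (adjusted p = 0.0613 for Gbp6). Unadjusted p-values were under 0.05 for 2 of 9 members, beside 36.6% of all genes. The median change of the members was -0.037, against 0.0045 over all genes, with 4 positive and 5 negative values, beside 50.7% positive over all genes. The sign of this median was not stable: it was -0.19 without control 5-FU replicate 1, -0.18 without control replicate 1, 0.073 without control 5-FU replicate 2 and 0.13 without control replicate 2, where 5 of 8 were positive. On the TPM scale described next it was 0.13, with 6 of 9 positive. Of the 10 members, 3 (Gbp2, Gbp6 and Irgm1) were lower without overlap and 0 higher, where 37.0% of all genes did not overlap in either direction. Scaling each library to a common total (TPM) moved the median of all genes to 0.177 and the calls from 833 higher and 1013 lower to 1889 and 441. On that scale Gbp3 was called higher, at 0.47 ± 0.14 (adjusted p = 0.0327), or 0.30 relative to the median of all genes, and Gbp6, which entered through the same filter, had an adjusted p of 0.00857.

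With antibiotics, the same 5-FU comparison gave 1 member called higher (Gbp3), beside 13.7% of all genes, and 0 called lower, beside 16.5%. Unadjusted p-values were under 0.05 for 3 of 9 members, Gbp3, Iigp1 and Irf1, beside 42.9% of all genes. The median change of the members was 0.26, against -0.014 over all genes, and 7 of 9 were positive, beside 48.0% of all genes. It was 0.16 without antibiotics 5-FU replicate 2, again with 7 of 9 positive, and 0.47 on the TPM scale. Without overlap, 3 members (Gbp3, Irgm2 and Iigp1) were higher, where 49.9% of all genes did not overlap. After scaling to TPM, where the all-gene median was 0.148 and 25% of all genes were called higher, 6 of 9 members were called higher: Gbp2, Gbp3, Gbp7, Irgm2, Iigp1 and Irf1. Relative to that median, these changes were 0.32, 0.61, 0.26, 0.37, 0.69 and 0.52. These 5-FU comparisons use different libraries, but whether their changes differ was tested by the interaction alone.

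The antibiotics comparison at steady state asked whether depletion of gut bacteria was followed by a difference in the members in unchallenged HSCs. No member was called by limma, beside 0.0702% of all genes (6 genes), and 2 members, Irgm1 and Irgm2, had an unadjusted p under 0.05, beside 17.8% of all genes. The estimates were negative for 8 of 9 members, with a median of -0.24 against 0.020 over all genes, of which 54.7% were positive. Gbp6, at -0.53, is among the 8 but was tested only because it reached 1 RPKM in groups where it is high. Gbp7 was the exception, at 0.11 ± 0.11. Irgm1 alone of the 10 members did not overlap, lower with antibiotics, where 22.1% of all genes did not overlap. Antibiotics libraries were shallower than control libraries without overlap, and the part of depth was not tested.

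After 5-FU, antibiotics libraries compared with control libraries gave 0 members called by limma, beside 0.117% of all genes (10 genes). Unadjusted p-values were under 0.05 for 2 of 9 members, beside 14.9% of all genes. These were Gbp2 at 0.27 ± 0.12 and Gbp7 at 0.25 ± 0.11, with adjusted p-values of 0.331 and 0.328. The median was 0.049, with 7 of 9 positive, beside 53.6% of all genes. Without antibiotics 5-FU replicate 2 it was -0.073, with 3 of 9 positive. None of the 10 members separated the groups, where 21.2% of all genes did.

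In the interaction, which asks whether the 5-FU change differs with antibiotics, 0 members were called by limma, beside 0.0117% of all genes (1 gene), and 1 of 9 had an unadjusted p under 0.05 (Gbp2), beside 8.3% of all genes. All 9 estimates were positive, beside 46.5% of all genes. They ran from 0.15 to 0.64, with a median of 0.29 against -0.016 over all genes. The 0.64 is that of Gbp6, which was tested only because it reached 1 RPKM in groups where it is high. Values of the members tend to go up and down together between libraries, so the 9 estimates are not independent. Leaving out antibiotics 5-FU replicate 2 lowered the median to 0.18, with 9 of 9 positive.

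**Figure D3:**
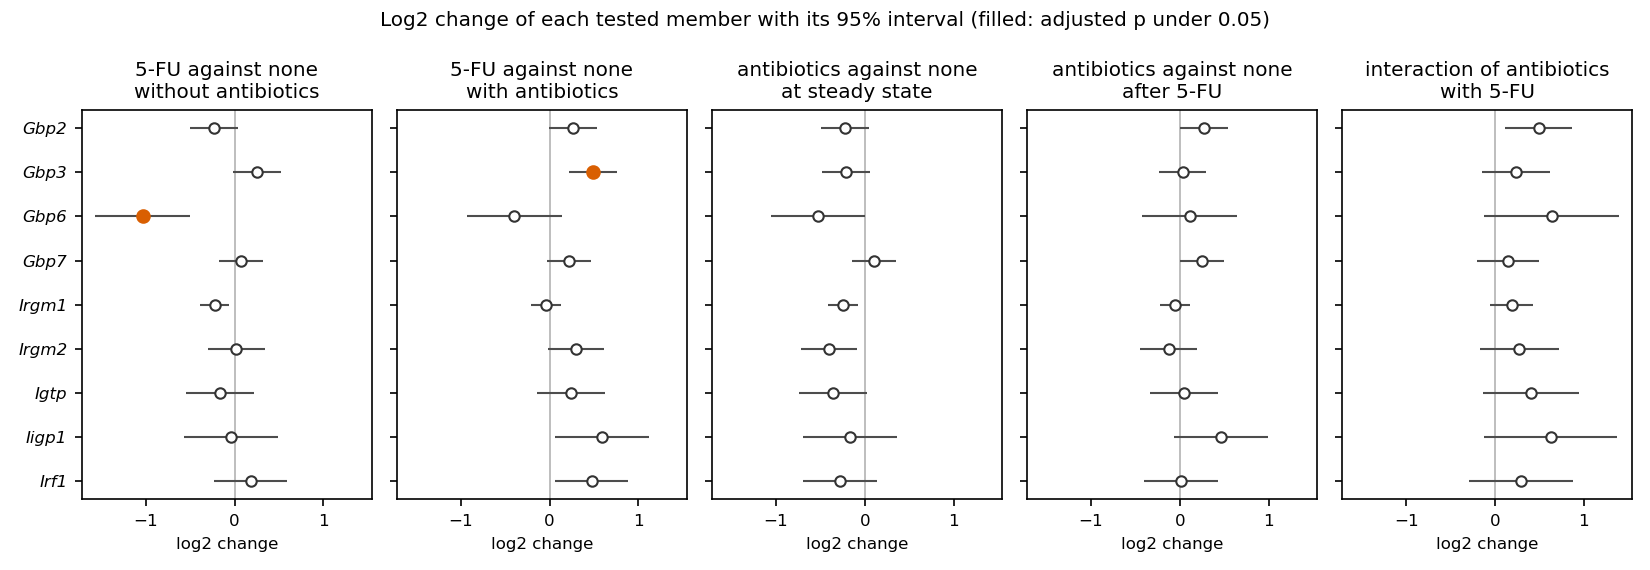
Log2 change of the 9 tested members (horizontal axes) in each comparison, with 95% intervals from the limma fit. Filled points, Gbp6 after 5-FU without antibiotics and Gbp3 after 5-FU with antibiotics, are the changes with an adjusted p under 0.05.

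Within the groups, the members tended to go up and down together, least clearly by rank in control 5-FU. Antibiotics 5-FU replicate 2 was the highest of its group for 10 of 10 members, and replicate 3 the lowest for 10 of 10. Antibiotics replicate 3 was the highest of its group for 9 members and control replicate 2 for 7. In control 5-FU the ranks were split: replicates 1 and 3 were each the highest for 4 members and replicate 2 for 2. Replicate 2 of that group was the lowest for 7 members and replicate 1 for 3. Such ranks were not counted over all genes. After removal of group means, Pearson's r between members was positive in 36 of 36 pairs, with a median of 0.643 and a range of 0.151 to 0.873, against a median of 0.017 over all pairs of tested genes. With group means kept, the median was 0.498 and 31 of 36 pairs were positive. The points of each pair are the same 12 libraries, with their shared depth and cells, and these r are a description. The strongest pair within groups was Gbp6 with Irgm2, on different chromosomes, and the weakest was Iigp1 with Irf1. Gbp6 was tested only because it reached 1 RPKM in groups where it is high. It and Irgm2 both had their highest value in control replicate 2, at 3.07 and 6.82 RPKM. The next strongest pair was Gbp2 with Gbp3, at 0.867.

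The mean standardised value of the 8 tested GTPases shows the libraries in 1 number each. Gbp6, which passed the filter through groups where it is high, is among the 8. This mean was highest in antibiotics 5-FU replicate 2 at 1.25 and in control replicate 2 at 1.03. It was lowest in antibiotics replicate 2 at -1.11 and antibiotics replicate 1 at -0.808. Control replicate 1 was at -0.208 and control 5-FU replicate 2 at -0.604. The ranges of the 4 groups all overlapped one another.

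**Figure D4:**
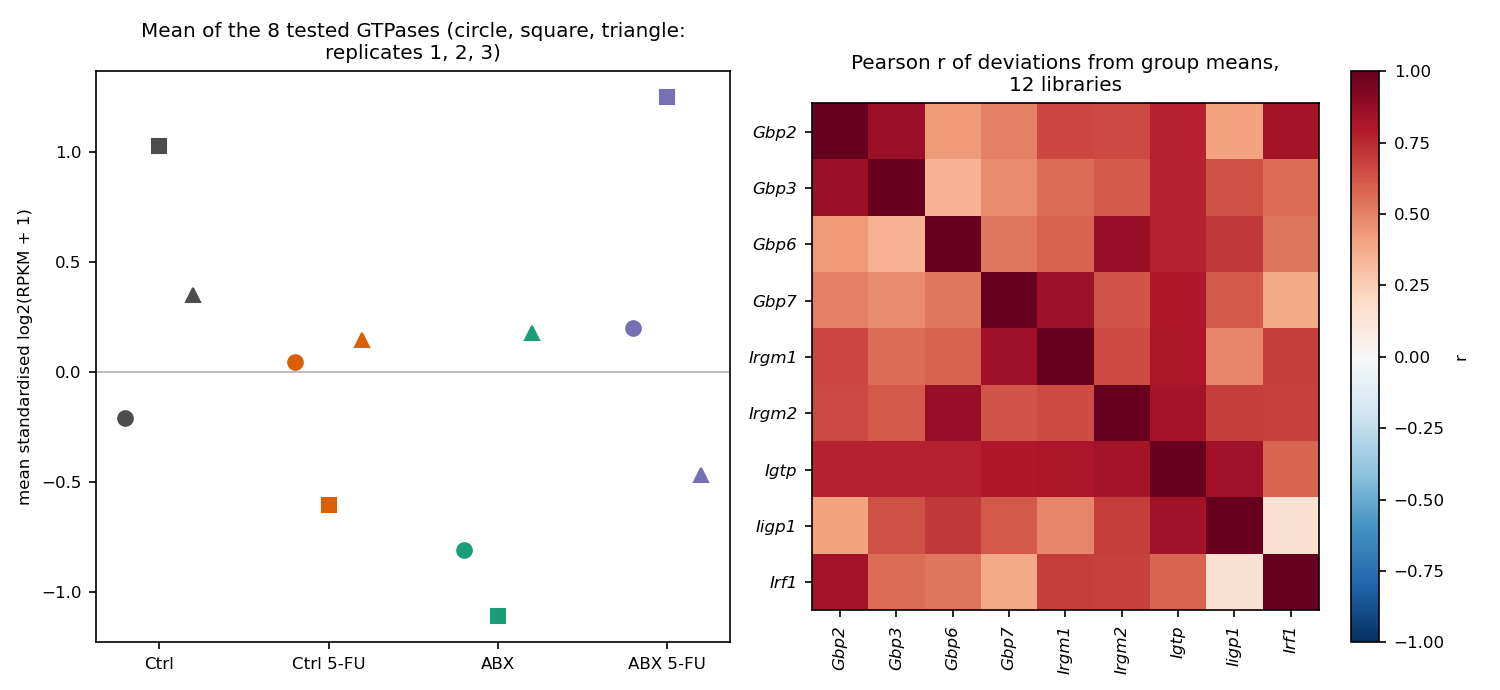
Left, mean standardised log2(RPKM + 1) of the 8 tested GTPases in each library, by group. Right, Pearson's r between members over 12 libraries after removal of group means, all positive, from 0.151 to 0.873.

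The genes outside the set most like the GTPase mean over 12 libraries were Gm15429 (r = 0.842), Tap1 (0.84), Gm12250 (0.837), Hid1 (0.822) and Srcap (0.821). Tap1 encodes a peptide transporter of MHC class I loading and Gm12250 is another IRG gene, listed in the table as a pseudogene. Tap1 read 27.4, 36.5 and 30.3 RPKM in control and 20.9, 22.9 and 27.8 RPKM in antibiotics, with its own highest values in the same control and antibiotics libraries as most members. The genes most like Irf1 were Gm9726 (0.938), Mettl7a1 (0.936) and Thnsl2 (0.928).

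Upstream of the members, Ifng was at the floor of the table in all 12 libraries. The receptor chains were higher after 5-FU in both settings. Ifngr1 rose from 9.54 ± 0.682 to 15.2 ± 1.63 RPKM without antibiotics (0.62 ± 0.089, adjusted p = 0.0015) and from 8.15 ± 0.578 to 14.4 ± 0.772 RPKM with antibiotics (0.75 ± 0.089, adjusted p = 0.000349), where mean ± SD is over n = 3. Ifngr2 rose from 1.03 ± 0.0981 to 2.25 ± 0.354 RPKM and from 1.23 ± 0.172 to 2.7 ± 0.249 RPKM (adjusted p = 0.00136 and 0.00049). For Jak1 the 5-FU change was 0.23 ± 0.066 with antibiotics (adjusted p = 0.0221) and 0.19 ± 0.066 without (adjusted p = 0.0548). Its interaction of 0.036 ± 0.093 (adjusted p = 0.926) did not show that these changes differ. Jak2, under 1 RPKM, was not tested. Socs1, the feedback inhibitor of this receptor, had no call. It read 1.93 ± 0.535 RPKM in control and 4.53 ± 1.64 RPKM in antibiotics (0.89 ± 0.24, adjusted p = 0.137). The counts of each list stand beside those over all genes, of which 9.74% were called higher and 11.8% lower without antibiotics (median 0.0045), and 13.7% and 16.5% with antibiotics (median -0.014). On the TPM scale 22.1% and 25% were called higher. Of 12 receptor and signal genes tested, 4 were higher and 0 lower without antibiotics (median 0.21), and 6 higher and 0 lower with antibiotics (median 0.23), and scaled to TPM 7 were higher without antibiotics. The largest change among them was that of Socs3, a feedback inhibitor of STAT3 signalling.

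Among the other interferon-inducible GTPases, 8 of 20 were tested, and the paralogs in the list did not share one direction. Tgtp2, an effector IRG, fell from 92.7 ± 5.07 to 57.0 ± 4.52 RPKM after 5-FU without antibiotics (-0.69 ± 0.10, adjusted p = 0.00188), as did Tgtp1 (adjusted p = 0.0357). Reads of these near-identical copies could be split between them. The call of 2 lower without antibiotics became 1 when any single control or control 5-FU library was left out, and on the TPM scale. With antibiotics 3 rose and 0 fell: Gbp5 (0.66 ± 0.20), Gm12250 (0.42 ± 0.12) and Gvin1 (0.59 ± 0.13). Leaving out antibiotics replicate 2 or antibiotics 5-FU replicate 2 left 1 called higher, and the latter also gave 1 called lower. The list medians were -0.17 without and 0.086 with antibiotics. The neighbours of Gbp6 on chromosome 5 were low. Gbp4 read 0.52, 1.9 and 0.962 RPKM and Gbp10 0.236, 1.38 and 0.44 RPKM in control, both highest in control replicate 2, like Gbp6. Gbp10 lies inside the span of Gbp6 on the same strand and holds 45.9% of its 50-base words, so these rows are not separate measurements.

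Of the other interferon regulatory factors, 9 of 11 were tested. Without antibiotics Irf2bpl alone was higher, and with antibiotics 4 were higher and 0 lower (medians 0.11 and 0.21). The count without antibiotics was 0 when control replicate 1 was left out, likewise for control 5-FU replicate 3 and with no filter on low values, and 2 on the TPM scale. The 4 became 2 without antibiotics replicate 1, antibiotics replicate 2 or antibiotics 5-FU replicate 2. Irf7, the main amplifier of type I interferon, rose after 5-FU from 9.75 ± 0.398 to 21 ± 4.02 RPKM with antibiotics (1.02 ± 0.17, adjusted p = 0.0014). Without antibiotics its 5-FU change was 0.42 ± 0.17 (adjusted p = 0.0919), and the interaction of 0.60 ± 0.23 did not pass (adjusted p = 0.58). Irf9 read 29.6 ± 1.09 RPKM in control and 22.1 ± 1.84 RPKM in antibiotics (adjusted p = 0.139).

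Other interferon gamma targets went both ways after 5-FU. Of 32 tested, 5 were higher and 7 lower without antibiotics, and 10 higher and 4 lower with antibiotics, with medians of -0.095 and 0.085. Scaled to TPM, 10 were higher and 5 lower without antibiotics. Ly6a (Sca-1), an HSC surface marker that interferon gamma induces, rose from 61.6 ± 5.33 to 127.0 ± 8.72 RPKM without antibiotics (1.03 ± 0.16, adjusted p = 0.00216). Casp4 rose in both settings (0.41 ± 0.079 and 0.58 ± 0.079). Psme2, a subunit of the proteasome activator PA28, fell from 14.9 ± 0.621 to 9.8 ± 0.424 RPKM without antibiotics (-0.56 ± 0.081, adjusted p = 0.00155). The immunoproteasome subunits Psmb8, Psmb9 and Psmb10 and the activator subunit Psme1 were also lower there. Among type I interferon genes, 3 of 29 were higher and 1 lower without antibiotics, and 10 higher and 0 lower with antibiotics, among them Rsad2 (0.81 ± 0.087, adjusted p = 0.00017). Their medians were 0.035 and 0.29, and without antibiotics 5-FU replicate 2 the 10 became 6, while scaling to TPM gave 18. Without antibiotics, the 3 became 1 when control replicate 3 or control 5-FU replicate 3 was left out or no filter was used, and 5 on the TPM scale. Leaving out control replicate 3 gave 2 lower there, and leaving out control replicate 2 gave 1 lower with antibiotics. Of 12 autophagy partners of IRG and GBP proteins, 4 were higher in each setting, Lgals8, Map1lc3b and Sqstm1 in both, with medians of 0.22 and 0.29. The 4 without antibiotics became 2 when control replicate 3 or control 5-FU replicate 2 or 3 was left out or no filter was used, and TPM gave 8 with antibiotics. No gene of these lists was called by limma in the antibiotics comparisons or the interaction, although 1 interferon gamma target was called lower at steady state when antibiotics replicate 3 was left out or the values were scaled to TPM. With the i7 index, the sequencing barcode of a library, fitted as a block, 1 receptor and signal gene was called higher with antibiotics at steady state and 1 IRF gene after 5-FU.

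**Figure D5:**
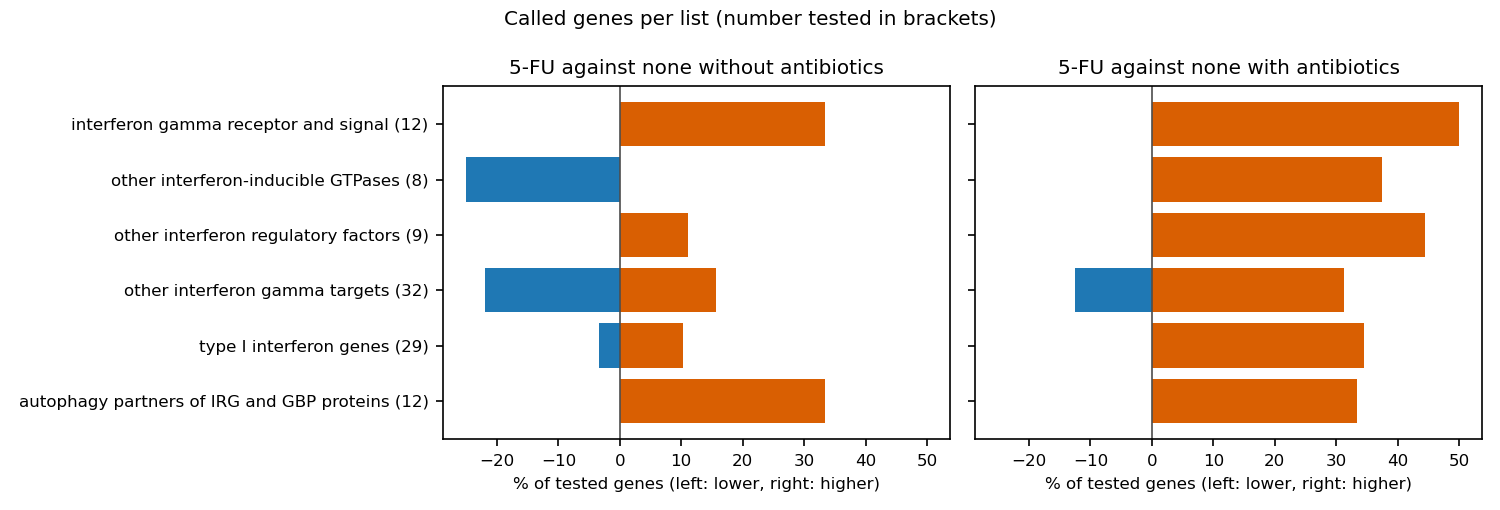
Share of the tested genes of each list (number tested in brackets) that were called after 5-FU, without antibiotics on the left and with antibiotics on the right. Bars to the left of 0 are genes called lower and bars to the right genes called higher, and the largest share is that of the receptor and signal genes with antibiotics, 6 of 12.

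Markers of the cells that make or also respond to interferon gamma were measured beside these results. Of 16 T and NK markers, 14 stayed under 1 RPKM and 5 (Cd3e, Cd3g, Cd8a, Gzma and Ncr1) were at the floor in all libraries. The summed level of that list, mostly from Nkg7, was 25.8 to 40.2 in control, 39.5 to 55.8 in control 5-FU, 24.7 to 28.8 in antibiotics and 32.6 to 38.4 RPKM in antibiotics 5-FU. Klrb1c, which encodes an NK cell receptor, rose from 0.865 ± 0.336 to 5.38 ± 1.05 RPKM after 5-FU without antibiotics (1.78 ± 0.14, adjusted p = 3.54e-05). With antibiotics it rose from 0.708 ± 0.113 to 5.85 ± 0.512 RPKM (2.0 ± 0.14, adjusted p = 1.49e-05). Summed neutrophil markers (10) were 9.02 to 19.5 in control, 36.1 to 256.0 in control 5-FU, 8.6 to 18.3 in antibiotics and 12.4 to 34.7 RPKM in antibiotics 5-FU, so they were higher without overlap after 5-FU without antibiotics and overlapped with antibiotics. Of these, S100a8 rose from 8.14 ± 2.87 to 74.1 ± 62.6 RPKM without antibiotics (2.70 ± 0.58, adjusted p = 0.00893). Summed megakaryocyte markers (5) were 53.8 to 142.0, 91.8 to 386.0, 82.4 to 86.7 and 98.0 to 120.0 RPKM in the same order. Summed erythroid markers (7) were 28.6 to 305.0, 144.0 to 230.0, 40.1 to 58.1 and 167.0 to 509.0 RPKM, and summed B cell markers (7) were 12.3 to 14.6, 9.17 to 24.3, 13.2 to 17.5 and 11.2 to 15.0 RPKM. Summed macrophage markers (13) were 8.59 to 24.0, 14.0 to 33.0, 10.7 to 35.5 and 26.4 to 31.8 RPKM in the same order, with 7 of them under 1 RPKM everywhere. Summed endothelial markers (6) were 6.68 to 8.8, 5.04 to 146.0, 4.57 to 8.52 and 8.9 to 90.2 RPKM. Their part in the values of the members was not tested. In such bulk RNA, fewer cells that express a gene and less RNA per cell cannot be told apart.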

How the data were processed

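RNA-seq of 12 HSC libraries was analysed from the table deposited by the authors, which gives RPKM per gene with a floor of 1e-04. Per the submitters' processing notes, STAR 2.5.3a and Partek were used with the mm10 build. How reads were counted, whether by strand and on which annotation: not given in the sources used here. Gene spans are those of the table, transcript counts and exons those of GENCODE M21.

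Values were tested as log2(RPKM + 1), which understates the change of low genes, for 8553 genes that reached 1 RPKM in 3 or more libraries. With limma 3.58.1 in R 4.3.3, 1 model with 4 group means (8 residual degrees of freedom) and an intensity trend gave two-sided tests, Benjamini-Hochberg adjusted over all tested genes and called at 0.05. The script was tested on simulated data. Depth was estimated from steps between low values, of which 41.1% to 47.2% were within 0.05 of a whole read, too few for a count test. All members and lists were chosen with earlier results of these data known. Named pathway genes are the up to 4 with the smallest p in any pairwise comparison per list, with Ifngr1, Ifngr2, Jak1, Jak2 and Socs1. A further gene of this rule is not reported here. Gbp4, Gbp10, Tgtp1 and Tap1, the proteasome subunits, Cldn5, Klrb1c and S100a8 were named after their values were seen, or by likeness. Likeness is Pearson's r over 12 libraries.

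Alternatives were a pseudocount of 0.1 or 5, no filter, scaling to TPM on the same genes, no trend, the i7 index as a block for the antibiotics comparisons, and leaving out each library. The added ones, for Gbp6 without the filter and without single libraries, were chosen after seeing the data.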

Additional observations from a re-analysis of the deposited data

How the results depend on the processing

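Over 45 changes of the members and 792 values under the alternatives, 755 kept their direction and side of the threshold, 6 lost the call, 12 gained it and 19 changed sign. Many of these values could not change sign. A pairwise estimate stays the same without a library of another group, with no filter or with no trend. Most changes were uncalled from the start, so keeping the side mostly meant staying uncalled. The 755 are therefore not a measure of stability. The labels give no replicate numbers to pair by. They do give i7 indexes, which control and antibiotics libraries share in pairs, and no label says what else such a pair shares. The fit with this index as a block is given below. The cause of the changes listed here was not tested.

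Scaling to TPM gave 1 member called higher without and 6 with antibiotics after 5-FU. It turned Igtp to 0.0028 and Iigp1 to 0.13 (5-FU without antibiotics), Irgm1 to 0.13 (5-FU with antibiotics), and Gbp3 to -0.0038 and Irf1 to -0.024 (antibiotics after 5-FU). Genes called were 13 at steady state and 47 after 5-FU for antibiotics. With no filter, 0 members were called lower after 5-FU without antibiotics, and genes called were 11 for antibiotics at steady state and 7 in the interaction. The i7 index block gave 20, 22 and 0 genes called for antibiotics at steady state, after 5-FU and in the interaction.

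Leaving out 1 library at a time, genes called ranged from 941 (without control replicate 3; 995 without control 5-FU replicate 3) to 2080 for 5-FU without antibiotics. With antibiotics they ranged from 1620 (without antibiotics replicate 2; 1651 without antibiotics 5-FU replicate 2) to 2879. They ranged from 1 to 25 for antibiotics at steady state, from 6 to 28 after 5-FU and from 0 to 3 in the interaction. Members called lower without antibiotics ranged from 0 (without control replicate 2 or 3 or antibiotics replicate 3, where Gbp6 fails the filter) to 2. Members called higher with antibiotics ranged from 0 to 3, with Gbp2 (adjusted p = 0.034) and Irf1 (0.0413) gained without antibiotics replicate 3, and Gbp7 (0.047) without antibiotics 5-FU replicate 3. Signs changed within these ranges: for 5-FU without antibiotics Iigp1, -0.29 to 0.19, and Irgm2, -0.13 to 0.17, and with antibiotics Irgm1, -0.11 to 0.026. At steady state, Iigp1 ranged from -0.31 to 0.016. For antibiotics after 5-FU, Gbp3 ranged from -0.073 to 0.10, Gbp6 from -0.0062 to 0.19, Igtp from -0.12 to 0.19, Irf1 from -0.16 to 0.14 and Irgm1 from -0.12 to 0.0088.

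Depth limits the low members: Gbp6 and Gbp9 had from about 31 and 52 reads in their lowest library by the depth estimate.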

Other observations

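Ubd and Cxcl9, interferon gamma targets that are also strongly induced in endothelial and myeloid cells, were highest in the libraries with the most Cldn5. These genes and Cxcl10 were chosen after their values were seen. Ubd read 80.9 RPKM in control 5-FU replicate 1 and 35.1 RPKM in antibiotics 5-FU replicate 1, against 0.161 to 2.64 RPKM in the other 10 libraries. Cxcl9 read 3.83 and 1.56 RPKM in these libraries and at most 0.676 RPKM elsewhere. Outside these libraries both were highest in antibiotics 5-FU replicate 2, which was the highest of its group for 10 of 10 members. Cxcl10 read 8.23 RPKM in antibiotics 5-FU replicate 1, 5.44 RPKM in antibiotics 5-FU replicate 2 and 4.34 RPKM in control 5-FU replicate 1. The mean standardised value of the GTPases was 0.0469 and 0.199 in control 5-FU replicate 1 and antibiotics 5-FU replicate 1, inside the range of the other libraries. The part of other cells in these values was not tested.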
